A study of Bombyx mori with 4 samples.

Results

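Translation factors and aminoacyl-tRNA synthetases were followed through the larval midgut of the silkworm, Bombyx mori, in 66 of 5558 deposited gene models. A model was taken when its best protein hit named an initiation, elongation or release factor, or a tRNA synthetase or ligase, and did not hold the word transcription. The 66 models were 31 initiation factors, 6 elongation factors, 2 release factors, 21 tRNA synthetases, 5 factors of the mitochondrial type and 1 kinase that acts on an initiation factor. Each group was 1 library of whole midgut RNA from larvae on the second day of instar 5, the last larval stage. The libraries were variety 932 without heat (932 control), 932 exposed to high temperature (932 heat), variety HY without heat (HY control) and HY exposed to high temperature (HY heat). The labels call 932 tolerant of heat and HY sensitive to it. Neither the temperature nor the length of exposure nor the number of larvae in a library is given in the sources used here.

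Protein synthesis begins when initiation factors bring the ribosome and the initiator tRNA to the capped end of an mRNA and find the start codon. Elongation factors then deliver charged tRNAs and move the ribosome along, release factors end the chain at a stop codon, and synthetases join each tRNA to its amino acid. Initiation is the step that stressed cells are known to regulate most, mainly through phosphorylation of eIF2 and through the cap-binding protein eIF4E. In the larval midgut the same machinery makes the digestive enzymes that the epithelium secretes.

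Values are tags per 1000000 tags of a library (RPM). Gene length is not corrected for, so levels of different genes are not ranked against each other. The libraries held 5799076 to 6139297 tags, and a tag was worth 0.163 to 0.172 RPM. The listed models held 11.6% (HY control) to 18.6% (932 control) of the tags. The lowest value above 0 equalled 2 tags in each library, so a model listed at 0 may have had 0 tags or 1. Midgut enterocyte markers summed to 10222 RPM in 932 control and to 5903 to 6829 in the others, with 33 to 35 of 41 models above 0. Muscle markers summed to 799.8 to 1130.4 RPM and fat body markers to 0 to 2.8. Haemocyte markers read 14.1 to 18.6 RPM in 3 libraries and 93.1 in HY heat. Cuticle proteins read 1489 RPM in HY heat and 2713 to 3811 in the others. Their part in the results below was not tested. In whole tissue, fewer cells of a type and less RNA per cell cannot be told apart.

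With 1 library per group no difference has a replicate check and no p-value is given. Ratios were taken on a log2 scale after 1 RPM was added to each value, so changes of low genes are understated. A ratio was read where a library compared had at least 1 RPM, and 2-fold was the limit for calling a gene higher or lower. Square brackets hold exact 95% counting intervals, on a log2 scale, of the ratio of tags per library total with nothing added. A low gene's ratio can therefore lie off the middle of its interval, and the interval covers no error between animals.

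Of the 66 models 52 reached 1 RPM in a library (78.8%, against 57.8% of all models), 43 reached 3 RPM, and 53 were above 0 in all libraries. The median model of the set averaged 7.37 RPM, against 0.734 RPM over all models, so counting error was smaller in this set than in most of the table. The summed values were 1698 RPM in 932 control, 1915 in 932 heat, 1919 in HY control and 2376 in HY heat. As a share of all listed models these sums were 0.91%, 1.26%, 1.66% and 1.58% in the same order. The sum was thus lowest in 932 control on both scales, while HY heat was above HY control in RPM and below it as a share of the listed models. The translation factor eIF5A and the elongation factor eEF1 alpha made up 43.8% to 49.6% of the summed RPM.

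**Figure D1:**
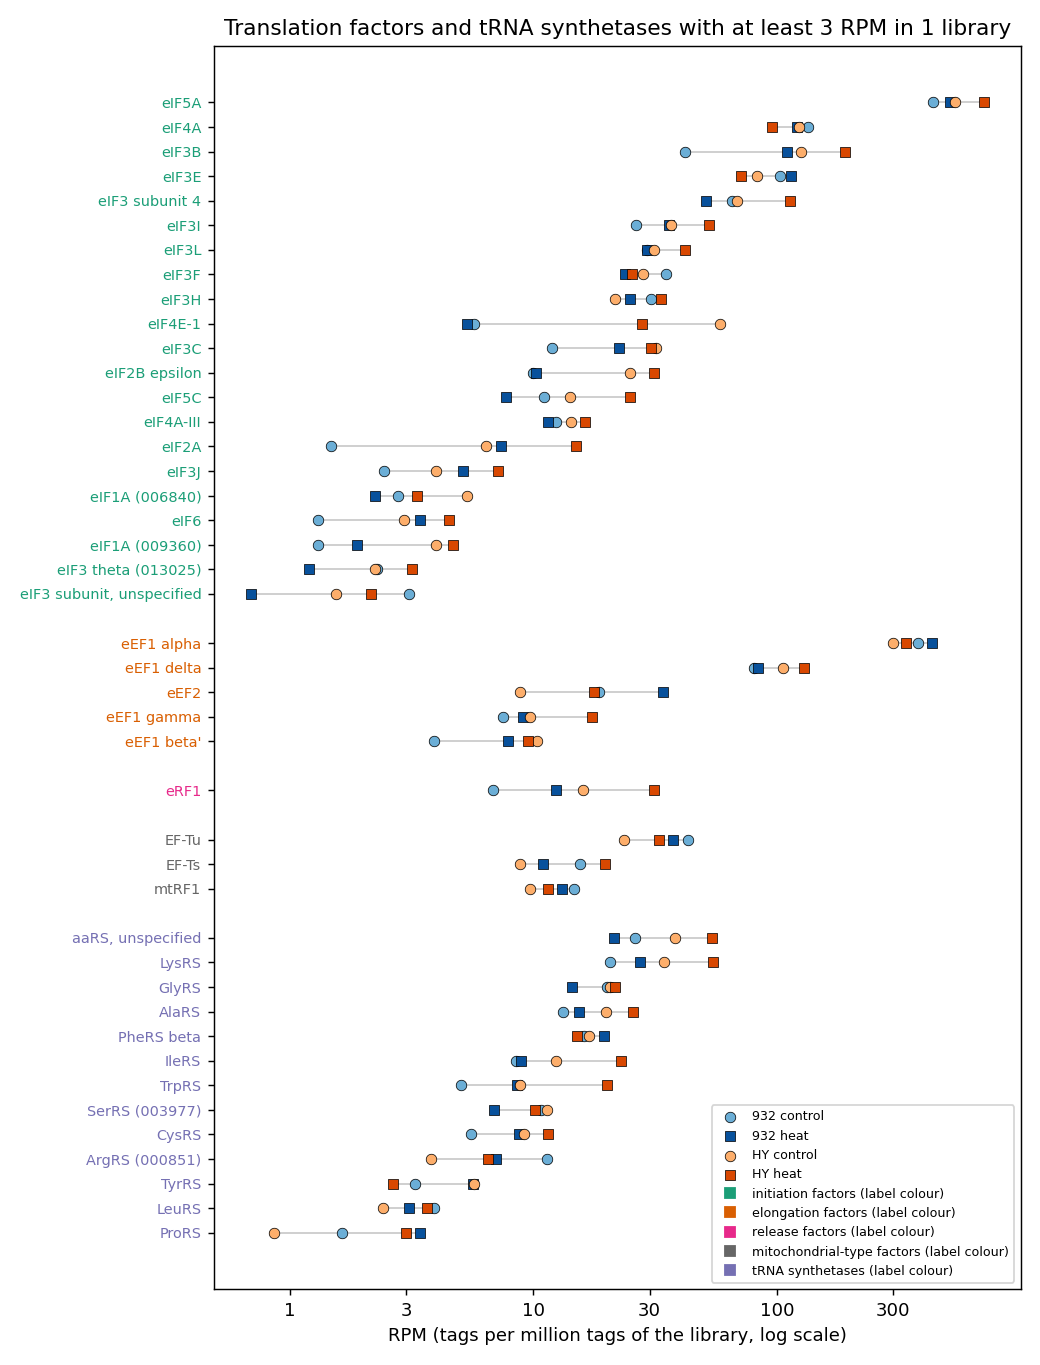
RPM on a log scale (horizontal axis) of the 43 models with at least 3 RPM in 1 library, grouped by class with label colours, where each point is 1 library and the grey line spans the 4 libraries. eIF4E-1 reads 5.70 and 5.32 RPM in the 932 libraries and 58.1 and 28.0 in the HY libraries, and eIF2A and eIF3B are lowest in 932 control.

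Among the factors that bind the mRNA cap and unwind the leader, 1 model, eIF4E-1, had the greatest difference between the varieties in the set. eIF4E-1 (BGIBMGA012675), the protein that binds the cap and starts recruitment of the ribosome, read 5.70 RPM in 932 control, 5.32 in 932 heat, 58.1 in HY control and 28.0 in HY heat. Both HY libraries were above both 932 libraries. The log2 ratio of 932 over HY was -3.14 [-3.90 to -2.85] in control and -2.20 [-3.00 to -1.84] after heat, and these comparisons share no library. Within HY the gene was lower after heat, with a log2 ratio of -1.03 [-1.33 to -0.78], and within 932 the ratio was -0.08 [-0.85 to 0.64]. The gene had 168 to 337 tags in the HY libraries and 31 to 35 in the 932 libraries. The second cap-binding model, eIF4E-2 (BGIBMGA013605), was listed at 0 in every library.

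The helicase eIF4A (BGIBMGA003186), which works beside eIF4E to open the mRNA leader, was nearly even. It read 134 RPM in 932 control, 120.4 in 932 heat, 123 in HY control and 95.2 in HY heat, lower after heat in both varieties by less than 2-fold. The log2 ratios of heat over control were -0.15 in 932 and -0.36 [-0.53 to -0.21] in HY. The number of eIF4E-1 tags for each eIF4A tag was therefore 0.0426 and 0.0442 in 932 control and heat, and 0.473 and 0.294 in HY control and heat. eIF4B (BGIBMGA006463), a helper of the helicase, stayed between 0.83 and 1.90 RPM. The scaffold relative eIF4 gamma 2 (BGIBMGA001081) read 0.33 to 0.69 RPM, and eIF4H (BGIBMGA012833) was above 0 only in HY heat, at 0.33. eIF4A-III is a related helicase that marks spliced exon junctions and is no cap factor. Its model (BGIBMGA004822), named here after its values were seen, read 11.5 to 16.3 RPM.

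The initiator tRNA is brought by eIF2, which is recycled by eIF2B. The epsilon subunit of eIF2B (BGIBMGA001197), the exchange factor that reloads eIF2 with GTP and is blocked when eIF2 is phosphorylated, read 9.94 RPM in 932 control, 10.3 in 932 heat, 25 in HY control and 31.1 in HY heat. It was at least 2-fold lower in 932 than in HY under both conditions, at -1.25 [-1.79 to -0.89] and -1.51 [-2.04 to -1.17]. The heat ratios were 0.05 in 932 and 0.31 in HY, both under 2-fold. eIF2A (BGIBMGA007571), a separate protein that can carry initiator tRNA under stress in mammals and is not the alpha subunit of eIF2, read 1.47, 7.38, 6.38 and 15.0 RPM in 932 control, 932 heat, HY control and HY heat. Both heat libraries were above both control libraries. It was the only model of the set at least 2-fold higher after heat in both varieties, with log2 ratios of 1.76 [1.27 to 3.55] in 932 and 1.12 [0.66 to 1.83] in HY. Its lowest value rests on 9 tags. The HY call, and with it the call in both varieties, was lost with median-of-ratios factors (0.80) and when centred on the median gene (0.78), while the 932 ratio was 1.74 under each.

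eIF2 itself was at the edge of detection. Its alpha subunit (BGIBMGA004302), the target of stress kinases, read 0.49, 1.54, 1.38 and 2.83 RPM in the same order, and its heat ratios of 0.77 [-0.34 to 4.18] and 0.69 [-0.25 to 2.46] had intervals that include 0. The beta subunit (BGIBMGA001437) was listed at 0 in both 932 libraries and read 0.34 and 0.83 RPM in HY. A model whose hit is an eIF2 alpha kinase (BGIBMGA008626) was listed at 0 in 932 control and read 1.03, 0.69 and 0.50 RPM in the others, so its 932 heat ratio of 1.02 rests on the added 1. Of the models for eIF1A, which helps scan for the start codon, BGIBMGA009360 read 1.30, 1.89, 3.97 and 4.66 RPM and BGIBMGA006840 read 2.77, 2.23, 5.35 and 3.33. Both were higher in both HY libraries than in both 932 libraries, and the 932 over HY ratio of the former was -1.11 [-2.98 to -0.39] in control.

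eIF3, the complex of many subunits that holds the small ribosomal subunit and the mRNA together, was covered by 14 models, 13 of them above the floor. Its subunits did not move as a block. The subunit eIF3B (BGIBMGA007114) read 41.7 RPM in 932 control, 110.2 in 932 heat, 125 in HY control and 189 in HY heat. It was 2-fold higher after heat in 932, with a log2 ratio of 1.38 [1.19 to 1.62], and stood at 0.60 [0.46 to 0.74] in HY. Centred on the median gene these ratios were 1.36 and 0.26. The 932 over HY ratio was -1.56 [-1.79 to -1.37] in control and -0.78 [-0.92 to -0.64] after heat. The 932 heat and the 932 over HY control ratios share the library 932 control, which is the low one.

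The subunit eIF3C (BGIBMGA012851) was also lowest in 932 control, with 11.9 RPM against 22.5 in 932 heat, 31.7 in HY control and 30.5 in HY heat. Its heat ratios were 0.87 [0.49 to 1.35] in 932 and -0.06 [-0.36 to 0.24] in HY. eIF3E (BGIBMGA003669) had the other order between the varieties, with 103 RPM in 932 control, 114 in 932 heat, 82.6 in HY control and 71.3 in HY heat. Both 932 libraries were above both HY libraries. For each eIF3E tag there were 0.405 eIF3B tags in 932 control, 0.967 in 932 heat, 1.51 in HY control and 2.66 in HY heat. Since both genes are read from the same library, this shift does not depend on the scaling of the libraries. The pair was chosen after the values were seen. For each eIF3C tag there were 3.51, 4.9, 3.93 and 6.21 eIF3B tags in the same order, so the size of a shift depends on the pair.

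**Figure D2:**
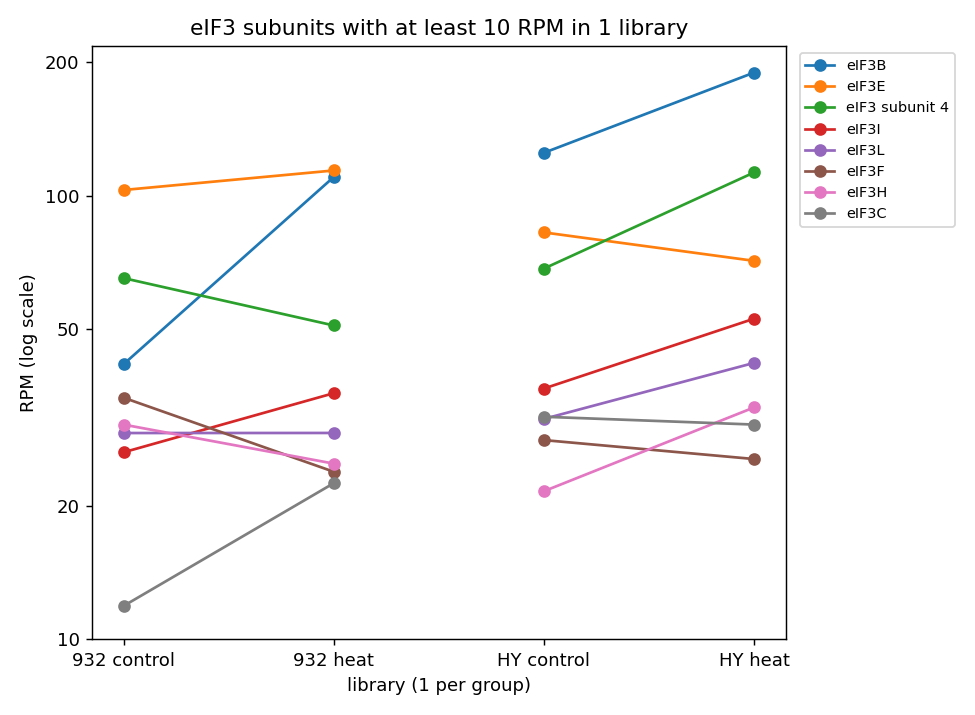
RPM on a log scale (vertical axis) of the 8 eIF3 subunit models with at least 10 RPM in 1 library, with lines joining the control and heat library of each variety. eIF3B goes from 41.7 to 110.2 RPM in 932 and from 125 to 189 in HY, while eIF3E goes from 103 to 114 and from 82.6 to 71.3.

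Further eIF3 subunits kept within 2-fold between control and heat. eIF3I (BGIBMGA007889) read 26.4 and 35.9 RPM in 932 and 36.7 and 52.8 in HY, higher after heat in both, at 0.43 [0.14 to 0.75] and 0.51 [0.27 to 0.78]. The model named eIF3 subunit 4 (BGIBMGA000367) read 65.2 and 51.0 RPM in 932 and 68.5 and 112.7 in HY, lower after heat in 932 at -0.35 [-0.58 to -0.13] and higher in HY at 0.71 [0.54 to 0.90]. It was even between the varieties in control and at least 2-fold lower in 932 after heat, at -1.13 [-1.35 to -0.95]. This call was lost when centred on the median gene. eIF3H (BGIBMGA006141) read 30.5 and 24.9 RPM in 932 and 21.6 and 33.3 in HY, with heat ratios of -0.28 [-0.62 to 0.03] and 0.60 [0.30 to 0.96]. Unlike eIF3 subunit 4 it was higher in 932 in control, at 0.48 [0.16 to 0.84]. Centred on the median gene, the HY heat ratios were 0.17 for eIF3I, 0.37 for eIF3 subunit 4 and 0.27 for eIF3H.

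eIF3F (BGIBMGA008209) read 35.0 and 23.9 RPM in 932 and 28.1 and 25.5 in HY, and the 932 ratio was -0.54 [-0.87 to -0.24]. eIF3L (BGIBMGA012126) read 29.2 and 29.2 RPM in 932 and 31.4 and 42.0 in HY, control first. eIF3J (BGIBMGA004175) read 2.44, 5.15, 3.97 and 7.16 RPM, with both heat libraries above both controls. eIF3K (BGIBMGA010671) had the same number of tags as eIF2 alpha in each library, 3, 9, 8 and 17. Whether the same tags were assigned to both models was not tested, and both are counted as members. eIF3D (BGIBMGA005592), a subunit that can itself bind the cap in mammals, read 2.44, 2.92, 1.21 and 0.67 RPM and was the 1 member at least 2-fold higher in 932 than in HY after heat, at 1.23 [0.51 to 4.16].

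A model with an unspecified eIF3 hit (BGIBMGA005468) read 3.09, 0.69, 1.55 and 2.16 RPM and was the 1 member at least 2-fold lower after heat in 932, at -1.28 [-4.19 to -0.58]. The models BGIBMGA013025 and BGIBMGA013026 hit the same monarch butterfly protein, the theta subunit. The first read 1.20 to 3.16 RPM and the second was above 0 only in HY heat, at 0.67, and since they are consecutive models with the same hit, whether they are separate genes was not tested.

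Late initiation factors and relatives were uneven in depth. eIF5A (BGIBMGA007469), a factor known mainly for helping the ribosome through difficult stretches, read 438 RPM in 932 control, 515 in 932 heat, 540.4 in HY control and 706 in HY heat. It was higher after heat in both varieties by less than 2-fold, at 0.23 [0.16 to 0.31] and 0.39 [0.32 to 0.45], and the HY value is near the shift of all genes given below. eIF6 (BGIBMGA009830), which keeps the ribosomal subunits apart, read 1.30, 3.43, 2.93 and 4.50 RPM, with both heat libraries above both controls. eIF5 (BGIBMGA008226), which triggers GTP hydrolysis on eIF2, stayed between 0.69 and 0.98 RPM. The model named eIF5C (BGIBMGA008682) read 11.1 and 7.72 RPM in 932 and 14.1 and 24.8 in HY. Its 932 over HY ratio after heat was -1.57 [-2.20 to -1.19], against -0.33 [-0.84 to 0.13] in control.

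Among elongation factors, eEF2 and the subunits of eEF1 differed in which variety was higher. eEF2 (BGIBMGA004165), the factor that moves the ribosome by a codon, read 18.6 RPM in 932 control, 34.1 in 932 heat, 8.79 in HY control and 17.65 in HY heat. Its heat ratios were 0.84 [0.54 to 1.22] in 932 and 0.93 [0.51 to 1.52] in HY, just under 2-fold on the scale with 1 added. The HY ratio was 0.59 when centred on the median gene. Both 932 libraries were above both HY libraries, with 932 over HY ratios of 1.00 [0.59 to 1.58] in control, a little under 2-fold before rounding, and 0.91 [0.60 to 1.31] after heat. eEF1 alpha (BGIBMGA003608), which delivers charged tRNAs, read 379, 435, 300.6 and 338 RPM and was also higher in both 932 libraries. Its ratios of 932 over HY were 0.33 [0.25 to 0.43] and 0.36 [0.28 to 0.45].

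The exchange subunits that recharge eEF1 alpha had the opposite order between the varieties. eEF1 delta (BGIBMGA003475) read 80.6, 83.9, 105.5 and 129 RPM, eEF1 gamma (BGIBMGA008302) read 7.49, 9.09, 9.66 and 17.3, and eEF1 beta' (BGIBMGA008921) read 3.91, 7.89, 10.35 and 9.49. All 3 were higher in both HY libraries than in both 932 libraries, although for eEF1 gamma the control interval of 932 over HY, [-0.96 to 0.22], includes 0. For eEF1 beta' the 932 over HY ratio was -1.21 [-2.15 to -0.70] in control and -0.24 [-0.86 to 0.32] after heat. For each eEF1 alpha tag there were 0.213 and 0.193 eEF1 delta tags in the 932 libraries and 0.351 and 0.381 in the HY libraries, control first.

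The release factor eRF1 (BGIBMGA014398), which reads the stop codon, read 6.84 RPM in 932 control, 12.4 in 932 heat, 16.0 in HY control and 31.3 in HY heat. It was higher after heat in both varieties by less than 2-fold, at 0.77 [0.28 to 1.44] and 0.92 [0.60 to 1.34], the latter 0.58 when centred. It was at least 2-fold lower in 932 than in HY in control, at -1.12 [-1.79 to -0.69], and after heat, at -1.27 [-1.75 to -0.94]. Its partner GTPase eRF3 (BGIBMGA003395) was listed at 0 except in 932 control, at 0.33 RPM.

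Factors of the mitochondrial type work on the ribosomes inside mitochondria. EF-Tu (BGIBMGA006749), which delivers tRNAs to mitochondrial ribosomes, read 43.0 and 37.6 RPM in 932 and 23.6 and 32.6 in HY, control first. Its heat ratios were -0.19 [-0.46 to 0.07] in 932 and 0.45 [0.14 to 0.79] in HY, and the latter was 0.11 when centred on the median gene. EF-Ts (BGIBMGA002348), its exchange factor, read 15.5 and 10.98 RPM in 932 and 8.79 and 19.65 in HY. The heat ratios of EF-Ts were -0.46 [-0.98 to -0.02] in 932 and 1.08 [0.67 to 1.66] in HY, and the difference of the responses was -1.54, which was not tested. The HY ratio was 0.74 when centred. The release factor model of mitochondria (BGIBMGA003549) read 14.7 and 13.0 RPM in 932 and 9.66 and 11.5 in HY, with heat ratios of -0.16 [-0.63 to 0.29] and 0.23 [-0.28 to 0.79], and the latter was -0.11 when centred. An elongation factor G model (BGIBMGA006144), named after its values were seen, was listed at 0 in both controls and read 0.51 and 1.17 RPM after heat in 932 and HY.

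Of 21 tRNA synthetase models 16 were above the floor, and none reached 2-fold between control and heat in 932, against 11.1% of all genes higher and 9.86% lower. In HY 2 of 16 passed 2-fold upward and 0 downward, against 14.1% and 4.59% of all genes. Centred on the median gene those 2 stood at 0.76 and 0.77, under 2-fold. The tryptophan enzyme (BGIBMGA005126) read 5.05 RPM in 932 control, 8.58 in 932 heat, 8.79 in HY control and 19.98 in HY heat. Its heat ratio was 1.10 [0.70 to 1.69] in HY and 0.66 [0.09 to 1.46] in 932. The proline enzyme (BGIBMGA009613) read 1.63 and 3.43 RPM in 932 and 0.86 and 3.00 in HY, with an HY ratio of 1.10 [0.31 to 3.58] that rests on 5 tags in control.

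Both HY libraries were above both 932 libraries for 7 of the 16 synthetases, against 27.9% of all genes, and the reverse held for 2, against 21.4%. The lysine enzyme (BGIBMGA002984) read 20.7 RPM in 932 control, 27.45 in 932 heat, 34.3 in HY control and 54.45 in HY heat. The isoleucine enzyme (BGIBMGA001558) read 8.47, 8.92, 12.4 and 23.0 RPM, with 932 over HY ratios of -0.50 [-1.10 to -0.02] in control and -1.27 [-1.85 to -0.89] after heat. The model BGIBMGA005117, whose hit names no amino acid, read 26.1, 21.5, 38.3 and 54.3 RPM, with ratios of -0.54 [-0.86 to -0.25] and -1.30 [-1.65 to -1.04]. These 3, the tryptophan and glycine (BGIBMGA007637) enzymes, and the alanine and cysteine enzymes, which were named after their values were seen, made up the 7. For glycine that order is slight, since its values were 20.03 and 14.4 RPM in 932 and 20.7 and 21.65 in HY.

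An arginine enzyme (BGIBMGA000851) had the other order, with 11.4 and 7.03 RPM in 932 and 3.79 and 6.49 in HY, control first. It was the 1 member at least 2-fold higher in 932 in control, at 1.37 [0.88 to 2.35], and stood at 0.10 [-0.55 to 0.79] after heat. The tyrosine enzyme (BGIBMGA014443), named after its values were seen, read 3.26 and 5.66 RPM in 932 and 5.69 and 2.66 in HY. Its heat ratios were 0.64 [-0.05 to 1.68] and -0.87 [-2.06 to -0.19], and their difference of 1.51 was the highest of the set. The aspartate models BGIBMGA010863 and BGIBMGA010864, which hit the same protein, were listed at 0 except for 0.69 RPM of the former in HY control. Every cell needs such an enzyme, so nothing is drawn from these zeros.

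Over the set, heat in 932 put 3 of 51 models at least 2-fold higher, eIF2A, eIF3B and the eIF2 alpha kinase, and 1 lower, the unspecified eIF3 model. Over all genes above the floor 11.1% were higher and 9.86% lower. The median log2 ratio of the set was 0.14, against 0.02 for all genes. The whole interval was beyond 2-fold for eIF2A and eIF3B, and for 3.95% of all genes in that direction, and for no member in the lower direction, against 3.51%. Centred on the median gene the counts were 2 higher and 1 lower, against 9.93% and 10.2%. Few members passed 2-fold, and counting intervals lay above 0 for 15 of 51 and below 0 for 8, against 22.1% and 21.5% of all genes.

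Heat in HY put 5 of 51 models at least 2-fold higher, eIF2A, EF-Ts, elongation factor G and the tryptophan and proline enzymes, and 1 lower, eIF4E-1. Elongation factor G was listed at 0 in HY control and had 7 tags in HY heat, so its ratio of 1.12 rests on the added 1. Over all genes 14.1% were higher and 4.59% lower. No member had its whole interval beyond 2-fold, against 4.13% of all genes higher and 1.92% lower. The median of all genes was 0.34 in this comparison and that of the set 0.41, which is 0.07 above it. Centred on the median gene, 0 members were 2-fold higher and 3 lower, against 4.52% and 8.61% of all genes, so the direction of the HY counts depends on the scaling. Intervals lay above 0 for 23 of 51 and below 0 for 4, against 34.2% and 9.22% of all genes.

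**Figure D3:**
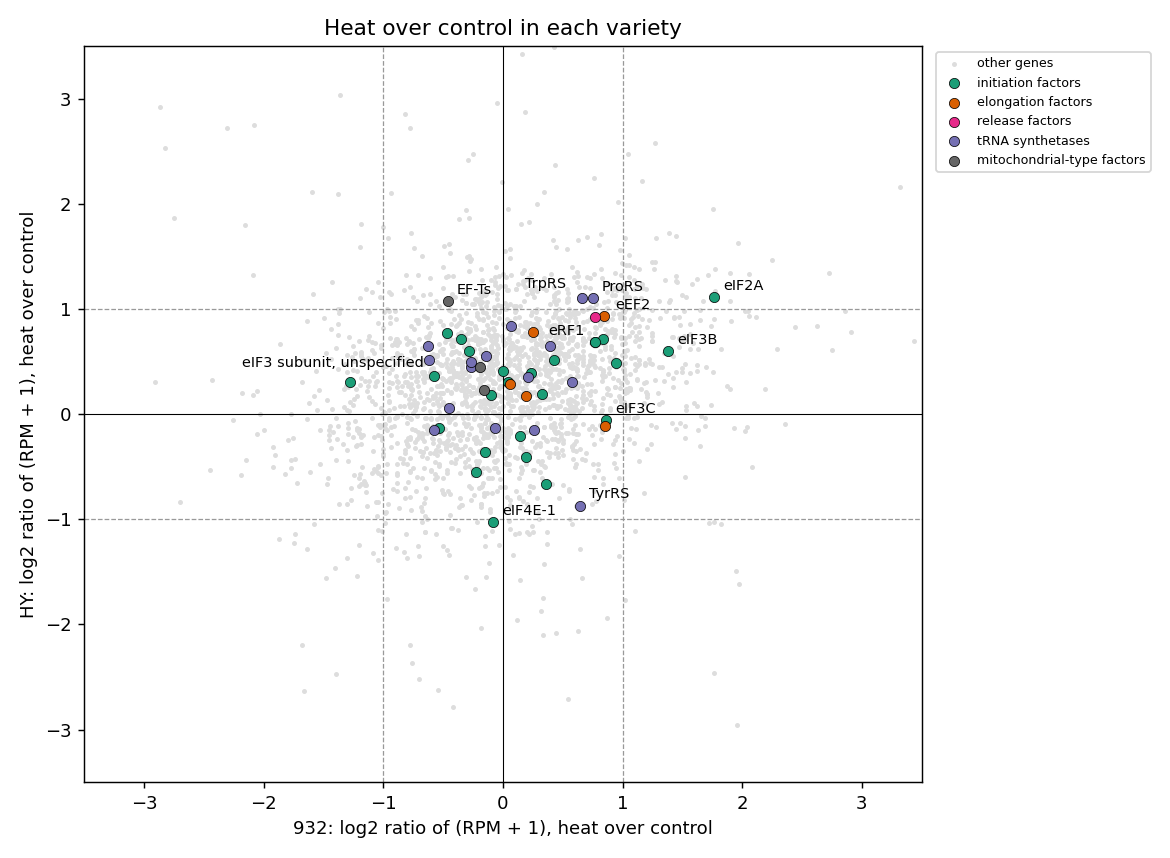
Log2 ratio of RPM plus 1, heat over control, in 932 (horizontal axis) and in HY (vertical axis) for the 50 members above the floor in both comparisons, coloured by class, over 2254 other genes, drawn in grey, with dashed lines at 2-fold. eIF2A is the 1 of 50 members past 2-fold upward in both, at 1.76 and 1.12, against 2.56% of all genes, and 0 of 50 are past 2-fold in opposite directions, against 1.69%. The axes end at 3.5, so 16 of the other genes fall outside.

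Between the varieties the set was lower in 932 more often than higher. In control 8 of 50 models were at least 2-fold lower in 932 and 1 higher, against 15.1% and 17.9% of all genes, and the median was -0.31 against 0.05. The 8 were eIF4E-1, eIF2A, eIF3B, eIF3C, eIF2B epsilon, eEF1 beta', eRF1 and the eIF1A model BGIBMGA009360. The share lower is close to that of all genes. The whole interval was beyond 2-fold for 4 of them, eIF4E-1, eIF2A, eIF3B and eIF3C, against 7.81% of all genes, and for no member in the higher direction, against 10.1%. For eIF2A and eIF3B this result and that for heat in 932 share the library 932 control, so they are not separate observations. Centred on the median gene the counts were 8 lower and 1 higher, against 15.7% and 17.0%. After heat 8 of 52 were lower and 1 higher, against 20.8% and 14.1%, and the median was -0.49 against -0.26. The 8 were eIF4E-1, eIF5C, eIF2B epsilon, eIF3 subunit 4, eRF1, and the isoleucine, tryptophan and unspecified synthetases. The whole interval was beyond 2-fold for eIF4E-1, eIF5C, eIF2B epsilon and the unspecified synthetase, against 9.3% of all genes, and for no member in the higher direction, against 7.96%. Centred on the median gene, these counts after heat were 6 lower and 3 higher, against 11.8% and 17.9% of all genes. eIF3 subunit 4 and the tryptophan enzyme were then no longer called lower.

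eIF4E-1, eIF2B epsilon and eRF1 were at least 2-fold lower in 932 under both conditions, against 9.43% of all genes, and 0 of 50 were 2-fold higher under both, against 8.41%. Both HY libraries were above both 932 libraries in 23 of 52 members, against 27.9% of all genes, and both 932 libraries were above both HY libraries in 8, against 21.4%. The 8 included eEF1 alpha, eEF2, eIF3E, eIF3D and EF-Tu. Both heat libraries were above both control libraries in 7 members, against 18.9% of all genes, and below them in 4, against 8.59%. 932 control was the lowest library for 22 of 52 members, against 25.9% of all genes, and HY heat the highest for 29, against 41.6%. These orders were looked at after the values had been seen.

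**Figure D4:**
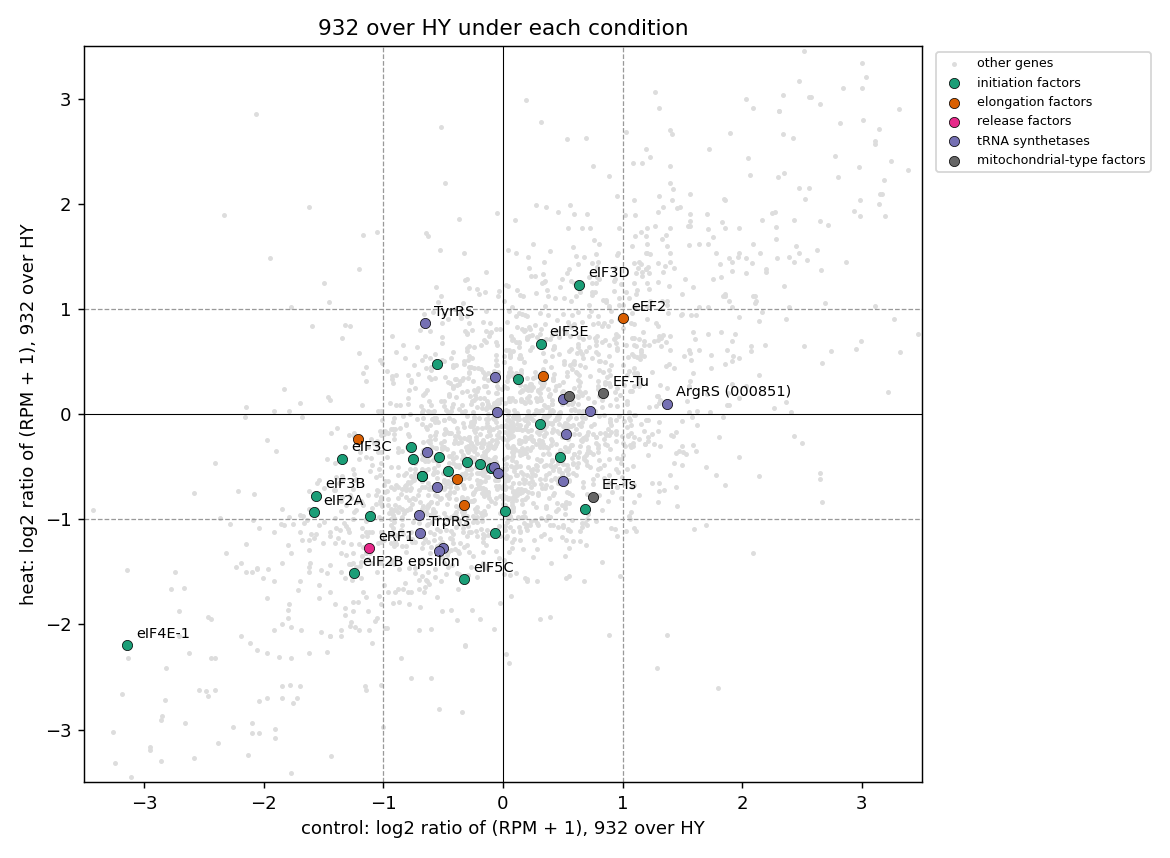
Log2 ratio of RPM plus 1, 932 over HY, in control (horizontal axis) and after heat (vertical axis) for the 50 members above the floor in both comparisons, coloured by class, over 2506 other genes, drawn in grey, with dashed lines at 2-fold. eIF4E-1 stands apart at -3.14 and -2.20, and 29 of 50 members have ratios below 0 under both conditions, against 38.2% of all genes, and 10 above 0 under both, against 28.6%. The axes end at 3.5, so 94 of the other genes fall outside.

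The response to heat was at least 2-fold greater in 932 than in HY for 3 of 52 members, the tyrosine enzyme, the eIF2 alpha kinase and eIF4B, against 8.09% of all genes. It was at least 2-fold smaller for 6, the unspecified eIF3 model, EF-Ts, both arginine enzymes (BGIBMGA000851 and BGIBMGA008930, the latter named after its values were seen), eIF5C and eIF3 subunit 4, against 18.8%. Centred on the median gene these counts were 7 and 3, against 12.7% and 11.8%. Some of the models named rest on few tags. eIF4B had 5 to 11 tags in a library and the arginine enzyme BGIBMGA008930 had 6 to 13. The heat intervals of both models include 0 in both varieties. The eIF2 alpha kinase had 0 to 6 tags, and its 932 ratio rests on the added 1. The median difference was -0.19 in the set and -0.25 over all genes. Of 50 members 0 were 2-fold higher in 1 variety and 2-fold lower in the other, close to the 1.69% of all genes.

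Other genes of protein synthesis were grouped by product name, and ribosomal proteins not named mitochondrial were listed as cytosolic. Models named 28S S6, S33, S34 and 50S L20 fell in that list, so it may hold mitochondrial proteins. After heat in 932, 5 of 70 cytosolic ribosomal protein genes passed 2-fold upward and 0 downward (median 0.11). In HY it was 1 of 71 upward and 0 downward (median 0.32). For mitochondrial ribosomal proteins 0 of 23 passed 2-fold upward and 1 downward in 932 (median 0.42), and 6 of 26 upward and 0 downward in HY (median 0.68). For ribosome biogenesis 4 of 12 genes passed it upward and 1 downward in 932 (median 0.87), and 3 of 15 upward and 0 downward in HY (median 0.36). Between the controls, 6 of 12 ribosome biogenesis genes were 2-fold or more below HY in 932, and 0 above (median -0.99). For tRNA modification 1 of 8 passed upward and 1 downward in 932, and 2 of 8 upward and 0 downward in HY. Genes of the signal recognition particle, which brings ribosomes to the endoplasmic reticulum, were higher in 2 of 5 in 932 and in none of 3 in HY, and none was lower. The 2 higher in 932, Srp9 and the receptor alpha subunit, were below the floor in both HY libraries. Their heat responses were therefore not compared between the varieties, and the receptor model read only 0.49 and 2.23 RPM in 932. In the list of poly(A) partners and translational control, 1 of 4 models was above the floor in 932 and 2 in HY, and none passed 2-fold. Over all genes 11.1% were higher and 9.86% lower in 932 (median 0.02), and 14.1% and 4.59% in HY (0.34). Between the controls 17.9% were higher in 932 and 15.1% lower (0.05). Centred on the median gene, the HY counts higher and lower were 1 and 0 for mitochondrial ribosomal proteins and 0 and 1 for ribosome biogenesis. They were 0 and 0 for tRNA modification and 0 and 2 for cytosolic ribosomal proteins, against 4.52% and 8.61% of all genes. In 932 centring changed only ribosome biogenesis, to 3 and 1. Between the controls, cytosolic ribosomal proteins had 4 of 71 genes 2-fold lower in 932 and 0 higher (median 0.05). Mitochondrial ribosomal proteins had 1 of 24 lower and 1 higher (-0.04), and tRNA modification 1 of 8 lower and 0 higher (-0.42). The signal recognition particle had 0 of 4 lower and 1 higher. After heat 4 of 14 ribosome biogenesis genes were 2-fold lower in 932 and 0 higher (-0.9), against 20.8% and 14.1% of all genes.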

How the data were processed

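The authors deposited 1 table of 5558 gene models with 4 value columns and 1 best protein hit for each model. Per the file headers the values are normalized and called TPM. They behave as RPM: of the values above 0 in the deposited files, 100% are whole numbers of tags within 0.0051 RPM at the library totals found for these libraries, against at most 49.6% at other totals near these. If the lowest value is taken as 1 tag instead of 2, 55.8% to 59.4% of the low values are whole, since 40.6% to 44.2% of them are odd numbers of tags. Intervals rest on these recovered tags, and no count test was run. No aligner, counting tool, tag filter or gene model build is given in the sources used here. RNA was extracted with Trizol and libraries followed a standard Illumina procedure, per the labels' protocols.

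The members, their classes, the gene lists and the tests were chosen with earlier results of these data known. Classes were assigned after the values were seen, and EF-Tu, EF-Ts and the elongation factor G model BGIBMGA006144 were put with the mitochondrial type although their hits do not say mitochondrial. Library orders and ratios within a library were also added after the values were seen. Of the 66 hits 35 were silkworm and 21 monarch butterfly proteins, and names are those of the hits. Of 32 RefSeq hits, 32 were found in a RefSeq gene table of assembly ASM3026992v2. No coordinates are given.

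Ratios were log2 of RPM plus 1 with a floor of 1 RPM in 1 library compared and a 2-fold rule over the whole table. Intervals are exact conditional (Clopper-Pearson) at 95%. Members named had at least 3 RPM and reached 2-fold in a comparison, or were among the 3 highest means of their class, or held a fixed role (eEF1, eEF2, eIF1A, eIF2, eIF2B, eIF3, eIF4A, eIF4B, eIF4E, eIF4G, eIF4H, eIF5, eIF5A, eIF6, eRF1 and eRF3). The steps were run on simulated data with counting error only and planted 4-fold changes. Of these changes 89.5% were recovered for heat in 932 and 86.0% for heat in HY. Among unchanged genes, 23 of 2413 and 25 of 2529 were called. Changes of 2-fold and error between animals were not simulated, so the simulation does not show how reliable the 2-fold calls are. Alternatives were other scalings, floors, added values and call rules, and the set without mitochondrial and other members. Software was scipy 1.17.1, pandas 2.3.3 and numpy 2.4.6 under Python 3.11.15, with figures from matplotlib 3.10.9.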

Additional observations from a re-analysis of the deposited data

How the results depend on the processing

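No paired analysis was possible because each group has 1 library and no replicate numbers. Depth limits models below about 3 RPM, where a ratio rests on a few tags. Counts are given as higher and lower, first for members and then, after the word against, for all genes above the floor. Settings that moved the member counts little are left out.

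For heat in 932 (3 and 1 of 51, median 0.14) the counts were 1 and 0 of 27 with a floor of 10 RPM, against 112 and 118 of 961. They were 8 and 1 with 0.1 added, against 498 and 432 of 2708, and 1 and 0 with 10 added, against 36 and 54. By a 4-fold rule they were 0 and 0, against 27 and 26. With the interval beyond 2-fold they were 2 and 0, against 107 and 95.

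For heat in HY (5 and 1 of 51, median 0.41) they were 0 and 2 with median-of-ratios factors (median 0.11), against 169 and 191 of 2810 (0.07). Centred on the median gene they were 0 and 3 (0.07), against 127 and 242. With a floor of 10 RPM they were 3 and 1 of 33, against 155 and 50 of 1023. They were 5 and 3 with 0.1 added, against 650 and 209, and 0 and 0 with 10 added (0.17), against 56 and 26 (0.11). They were 0 and 0 by a 4-fold rule, against 42 and 21, and by the interval, against 116 and 54. Without mitochondrial and other members they were 3 and 1 of 47, against 397 and 129.

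For 932 over HY in control (1 and 8 of 50, median -0.31) they were 2 and 8 with totals without the 20 most abundant genes, against 545 and 402 of 2780. They were 3 and 11 with 0.1 added, against 648 and 579, and 0 and 2 with 10 added, against 135 and 88. They were 0 and 1 by a 4-fold rule, against 149 and 110, and 0 and 4 by the interval, against 281 and 217. After heat (1 and 8 of 52, median -0.49) they were 3 and 6 with median-of-ratios factors (-0.23), against 506 and 384 of 2990 (-0.05). They were 3 and 6 when centred (-0.23), against 534 and 352. Where 10 RPM was the floor they were 0 and 8 of 32, against 159 and 235 of 1098. They were 2 and 14 with 0.1 added, against 540 and 854, and 0 and 4 with 10 added (-0.19), against 92 and 118 (-0.09). They were 0 and 1 by a 4-fold rule, against 102 and 137, and 0 and 4 by the interval, against 238 and 278.

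For the difference of the responses (3 and 6 of 52, median -0.19) they were 7 and 3 with median-of-ratios factors (0.10), against 375 and 410 of 3214 (-0.03). They were 7 and 3 when centred, against 408 and 379. Where 10 RPM was the floor they were 0 and 4 of 34, against 93 and 253 of 1198. With 0.1 added they were 6 and 8, against 511 and 941. They were 0 and 0 with 10 added, against 43 and 120, and by a 4-fold rule, against 43 and 86. The interval rule was not run for the difference. A higher floor tests fewer genes, and the other causes were not tested.

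Alternatives chosen after seeing the data moved more. Scaled to the sum of the listed models, the counts were 14 and 1 for heat in 932 (median 0.44), against 661 and 286 of 2708 (0.31). For heat in HY they were 2 and 5 (0.10), against 371 and 342 of 2810 (0.05). For 932 over HY in control they were 0 and 25 (-1.01), against 385 and 1026 of 2780 (-0.61). After heat they were 2 and 14, against 531 and 850 of 2990. For the difference they were 13 and 3 (0.48), against 876 and 534 of 3214 (0.30), so all genes shifted too. That sum follows a few very abundant genes, with 35.0% to 48.7% of it in 20 models. With tag numbers, 0.5 tag added and a floor of 10 tags, the counts were 5 and 1 of 46 for heat in 932, against 378 and 349 of 2282. For heat in HY they were 4 and 3 of 48, against 488 and 141 of 2311. For 932 over HY in control they were 3 and 9 of 47, against 543 and 449 of 2377. After heat they were 2 and 13 of 48, against 432 and 669 of 2472. For the difference they were 5 and 7 of 49, against 380 and 725 of 2648. Of 1554 values of named members under scaling, floor and added-value alternatives, 137 lay outside the counting interval of the reported value (for the difference of the responses, over 2-fold from it), and no ratio past 2-fold changed sign. A floor leaves the ratio itself as it was, so the floor alternatives could add nothing to the 137. An added value cannot change the sign of a ratio between a pair of libraries. These numbers are therefore no measure of how stable the ratios are.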

Other observations

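Srp9 (BGIBMGA001186), a small subunit of the signal recognition particle that slows elongation while the ribosome is brought to the membrane, read 90.2 RPM in 932 control and 236 in 932 heat and was listed at 0 in both HY libraries. The models of Srp72, Srp68 and Srp54 were above 0 in all libraries. Srp68 (BGIBMGA005593) read 20.9 and 20.1 RPM in 932 and 42.4 and 64.1 in HY, and Srp54 (BGIBMGA004993) read 27.5, 20.6, 21.0 and 19.6 RPM. Ribosomal protein genes near 0 in 932 only were also seen. RpL32 (BGIBMGA000066) read 0 and 0.34 RPM in 932 and 788 and 1138 in HY. Mitochondrial L14 (BGIBMGA008301) read 0.49 and 0 in 932 and 18.8 and 51.8 in HY. Nothing is drawn from these zeros. Whether such differences between the varieties reflect expression was not tested, here or for the members.

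Among ribosome biogenesis genes the nucleolar GTP-binding protein 1 model (BGIBMGA003221), whose relatives assemble the large ribosomal subunit, read 51.0 and 142 RPM in 932 and 110.0 and 264 in HY, control first. Like eIF2A, it was higher in the heat library of each variety and lowest in 932 control. The model of IMP4 (BGIBMGA010745), a protein of early ribosomal RNA processing, read 1.95 and 8.06 RPM in 932 and 5.69 and 15.3 in HY. These genes were chosen after their values were seen.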
